A study of Mus musculus with 4 samples.

Results

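A set of 10 genes of the AP-1 transcription factor family and its small Maf relatives were followed in mouse liver RNA: Fos, Fosb, Fosl1 and Fosl2, then Jun, Junb and Jund, then Maff, Mafk and Mafg. They were taken by symbol from a deposited table of 24421 gene symbols, and 10 of 10 were present. Liver RNA came from mice that had undergone hepatectomy, the surgical removal of part of the liver. In the gelADSC group the mice were treated with ADSC, a stem cell preparation, embedded in fibrin gel (2 libraries). In the control group the mice received fibrin gel without these cells (2 libraries). All groups thus share the hepatectomy and the gel. The sources used here do not give strain, sex, age, the origin of the ADSC or the time after surgery. No label says whether both samples of a group are different mice, so each p-value measures the spread between these samples, which may be technical.

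AP-1 is a dimer of basic leucine zipper (bZIP) proteins that binds the DNA motif TGANTCA. Jun proteins pair with each other or with Fos proteins, whereas Fos proteins need a Jun partner. Many of these genes are immediate early genes, switched on without new protein synthesis by growth factors, stress and, in liver, by hepatectomy itself, and mice that lack Jun in hepatocytes regenerate the liver poorly. The small Maf proteins Maff, Mafk and Mafg are bZIP proteins without an activation domain. They act as partners of NRF2 (gene symbol Nfe2l2) at genes of the antioxidant response, and as repressors when paired with each other.

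Livers of the gelADSC group had less transcript of most of these genes. The 10 genes together summed to 98.6 and 85.4 FPKM (fragment counts divided by gene length and library total, so a level per length) in gelADSC libraries 2 and 3, and to 226 and 169 FPKM in control libraries 1 and 3. Both gelADSC sums lay below both control sums. The mean sum was 92.0 ± 9.36 FPKM in gelADSC livers and 197 ± 40.4 FPKM in control livers (SD, n = 2 each), a ratio of 0.467. Of the 9 genes that reached a mean of 1 FPKM and were tested, 6 fell in gelADSC livers at an adjusted p under 0.05 (limma on log2(FPKM + 1), Benjamini-Hochberg over all genes tested) and 0 rose. Over all 11070 genes tested, 17.5% were called lower and 6.92% higher. The 6 genes were Fos, Fosl1, Junb, Jund, Maff and Mafk. Fosl1 reached the filter through the control group alone, so its direction was fixed by that choice. Among the other 8 genes 5 fell, where 17.1% of the 10375 genes averaging 1 FPKM or more in both groups were called lower. The 3 tested genes without a call were Fosl2, Jun and Mafg, and Fosb was too low to be tested. Without control library 1, 0 of the 9 genes and 605 of all tested genes were called, with limma adjusted p-values of 0.0838 or more for the 9 genes, 4 of which were lower at an unadjusted p under 0.05.

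Both gelADSC values lay below both control values for 9 of the 10 genes, or 8 of the 9 tested, where 50.5% of all tested genes showed this order. Jun was the exception. These orders are those of the deposited values. After scaling by median ratios between libraries the groups of Fosl2 overlapped as well. The median log2 change (gelADSC minus control) of the 9 tested genes was -1.26 (-1.19 without Fosl1), and that of all tested genes was -0.25, with quartiles of -0.57 and 0.10. The deposited values thus carry a general shift. Scaling by median ratios between libraries moved the median of all genes to -0.04 and left 3 of these genes called, namely Fos, Jund and Mafk.

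**Figure D1:**
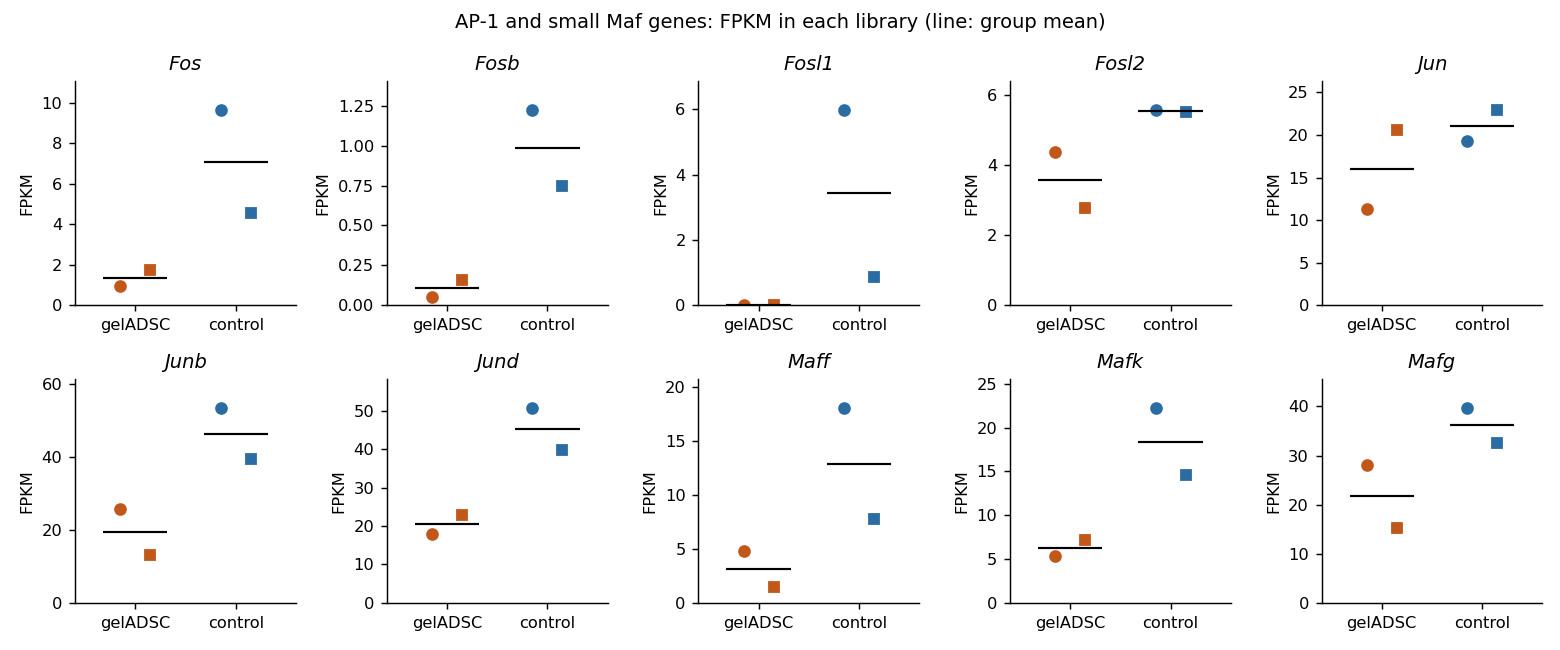
FPKM of each of the 10 genes (vertical axes, linear, each with its own range) in the gelADSC libraries (orange, left) and the control libraries (blue, right). Circles are gelADSC library 2 and control library 1, squares are the libraries numbered 3, and lines are group means. In these deposited values the groups overlap in Jun alone, and Fosl1 lies at 0 in both gelADSC libraries.

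Among the Fos proteins, which supply the partner that stabilises the Jun dimer on DNA, Fos itself read 0.939 and 1.75 FPKM in gelADSC libraries 2 and 3, against 9.63 and 4.56 FPKM in control libraries 1 and 3. The highest gelADSC value was below the lowest control value, while the control values themselves differed by a ratio of 2.11. Fos fell in gelADSC livers to a mean of 1.35 ± 0.576 FPKM, against 7.10 ± 3.59 FPKM in control livers (SD, n = 2 each). Its log2 change was -1.73 (SE 0.33, limma adjusted p = 0.00801), and 1.97% of tested genes had a lower change.

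Fosl1, which encodes FRA1, a Fos protein that lacks the strong activation domain of Fos, was read 0 times in both gelADSC libraries. In the control libraries it had 5.97 and 0.875 FPKM. These control values stand on 203 and 27 reads, recovered from the steps of the deposited values. Control library 1 was thus 6.83 times control library 3, the widest gap between control libraries among the 10 genes. With a floor of 3 reads per library, which is worth 0.0721 and 0.0873 FPKM in gelADSC libraries 2 and 3, Fosl1 was at least 43.0-fold lower in gelADSC livers than in the control mean, and at least 11.0-fold lower than in control library 3 alone. The fitted log2 change was -1.85 (SE 0.51, limma adjusted p = 0.0327), a value that depends on the pseudocount and is no bound, and it was -0.91 without control library 1. Since Fosl1 passed the filter on low values through its control libraries alone, this p is given as a description.

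Fosb, a Fos protein known for its long-lived splice form in the brain, was the lowest gene in control livers. It read 0.0543 and 0.158 FPKM in gelADSC libraries 2 and 3 (5 and 12 reads), and 1.22 and 0.746 FPKM in control libraries 1 and 3 (92 and 51 reads). The 95% Poisson intervals, which cover counting error only, ran up to 0.276 FPKM in the higher gelADSC library and down to 0.555 FPKM in the lower control library, so that they did not meet. Its mean over the 4 libraries, 0.545 FPKM, was below the filter. In a fit without the filter its log2 change was -0.83 (SE 0.14, limma adjusted p = 0.0414). At levels near or below 1 FPKM the pseudocount of 1 shrinks both this change and its SE. The control mean of Fosb was 9.29 times its gelADSC mean.

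Fosl2, which encodes FRA2, a Fos protein that like FRA1 lacks a strong activation domain, was the Fos gene with the smallest difference. It read 4.38 and 2.77 FPKM in gelADSC libraries 2 and 3, and 5.56 and 5.50 FPKM in control libraries 1 and 3. In the deposited values the groups did not overlap, and the control libraries were nearly equal. Neither held after scaling by median ratios. The factors were 1.19 and 0.998 for control libraries 1 and 3, and 0.888 and 0.956 for gelADSC libraries 2 and 3. The log2 change of -0.54 (SE 0.24) did not pass the test (limma adjusted p = 0.126), and 27.3% of tested genes had a lower change.

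The makeup of the Fos family differed between the groups, which was not tested apart from the single genes. Fosl2 held 81.5% and 59.2% of the summed Fos-family FPKM in gelADSC libraries 2 and 3, against 24.8% and 47.1% in control libraries 1 and 3. Fos held 17.5% and 37.5% in the gelADSC libraries, against 43.0% and 39.1% in the control libraries. Fosl1 held 0% in both gelADSC libraries, against 26.7% and 7.49% in the control libraries. The whole family summed to 5.37 and 4.68 FPKM in gelADSC livers, against 22.4 and 11.7 FPKM in control livers. Without control library 1 the calls of this family were lost, with limma adjusted p = 0.0897 for Fos and 0.0886 for Fosl1.

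**Figure D2:**
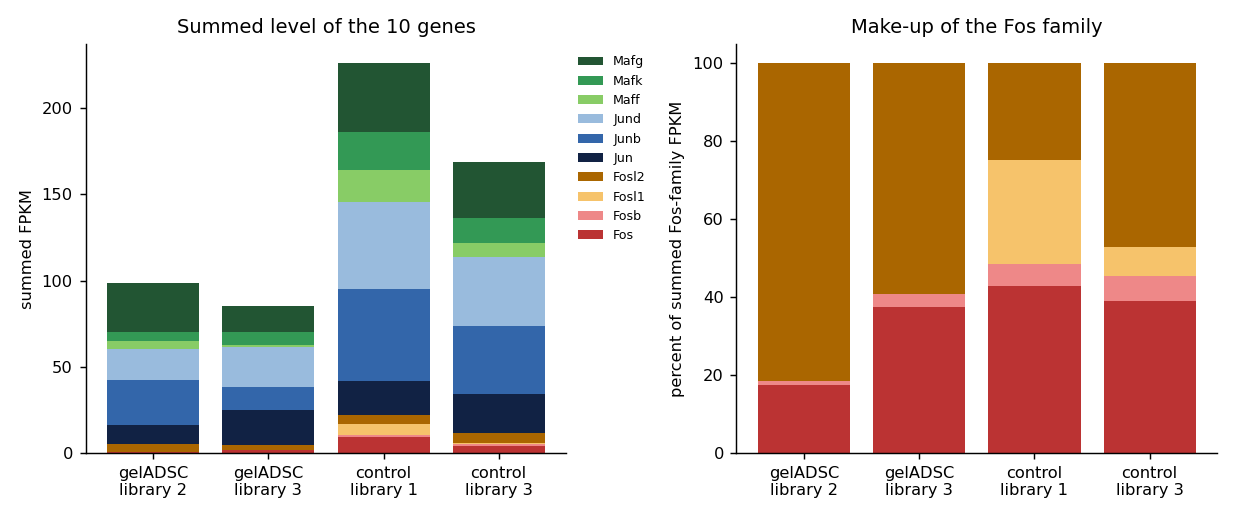
Left, summed FPKM of the 10 genes in each library, stacked by gene and starting at 0; right, the percent of the summed Fos-family FPKM held by Fos, Fosb, Fosl1 and Fosl2. The gelADSC bars reach 98.6 and 85.4 FPKM and the control bars 226 and 169 FPKM, and Fosl2 holds the most of the Fos family in both gelADSC libraries.

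The Jun proteins are present in every AP-1 dimer of the Fos and Jun type, and their summed FPKM was above that of the Fos family in every library. The 3 genes summed to 55.0 and 56.8 FPKM in gelADSC libraries 2 and 3, against 123 and 102 FPKM in control libraries 1 and 3. The gelADSC sums were nearly equal although the single genes were not. Junb, a Jun protein that activates more weakly than Jun and can oppose it, read 25.8 and 13.2 FPKM in the gelADSC libraries and 53.4 and 39.4 FPKM in the control libraries. Junb fell with a log2 change of -1.26 (SE 0.30, limma adjusted p = 0.0204), and its gelADSC mean was 0.420 times its control mean. Its groups did not overlap, and gelADSC library 2 was 1.95 times gelADSC library 3.

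Jund, the Jun protein that many resting cells carry and that is known to restrain growth of fibroblasts, read 17.9 and 23.0 FPKM in gelADSC libraries 2 and 3. In control libraries 1 and 3 it read 50.7 and 39.8 FPKM. Here gelADSC library 3 was the higher of its group, the reverse of Junb. Jund fell with a log2 change of -1.11 (SE 0.21, limma adjusted p = 0.00854), to 20.4 ± 3.57 FPKM in gelADSC livers, against 45.2 ± 7.74 FPKM in control livers (SD, n = 2 each).

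Jun, which encodes c-Jun, the target of the stress kinase JNK, was the gene of the 10 with overlapping groups in the deposited values. It read 11.3 and 20.6 FPKM in gelADSC libraries 2 and 3, against 19.3 and 22.9 FPKM in control libraries 1 and 3. The overlap came from gelADSC library 3, which exceeded control library 1. Its log2 change of -0.43 (SE 0.27) did not pass the test (limma adjusted p = 0.269), and 34.9% of tested genes had a lower change. Jun held 20.6% and 36.2% of the summed Jun-family FPKM in the gelADSC libraries, against 15.6% and 22.4% in the control libraries, and these ranges overlapped as well. Without control library 1 limma's adjusted p was 0.206 for Junb and 0.0967 for Jund, and without control library 3 it was 0.0659 for Junb.

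The small Maf genes, whose products have no activation domain of their own, summed to 38.3 and 24.0 FPKM in gelADSC libraries 2 and 3, against 80.0 and 54.9 FPKM in control libraries 1 and 3. Mafk, the small Maf first described as the small subunit of the erythroid factor NF-E2, read 5.34 and 7.22 FPKM in the gelADSC libraries and 22.2 and 14.6 FPKM in the control libraries. Every gelADSC value was below every control value. Mafk fell with a log2 change of -1.40 (SE 0.25, limma adjusted p = 0.00638), and this p was the lowest among the 10 genes.

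Maff, a small Maf whose gene responds to stress and cytokines, read 4.81 and 1.49 FPKM in gelADSC libraries 2 and 3, against 18.0 and 7.76 FPKM in control libraries 1 and 3. Its groups did not overlap, yet both groups were wide, with ratios of 3.23 between the gelADSC libraries and 2.33 between the control libraries. It fell with a log2 change of -1.76 (SE 0.45, limma adjusted p = 0.0251), to 3.15 ± 2.35 FPKM in gelADSC livers, against 12.9 ± 7.27 FPKM in control livers (SD, n = 2 each).

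Mafg, the small Maf whose loss lowers platelet numbers in mice, was the highest of the 3. It read 28.1 and 15.3 FPKM in gelADSC libraries 2 and 3, against 39.7 and 32.6 FPKM in control libraries 1 and 3. The groups did not overlap, but the log2 change of -0.76 (SE 0.28) did not pass the test (limma adjusted p = 0.0790). Mafg made up 73.5% and 63.7% of the summed small Maf FPKM in the gelADSC libraries, against 49.6% and 59.3% in the control libraries. Maff made up 12.6% and 6.22% in the gelADSC libraries, against 22.6% and 14.1% in the control libraries. Without control library 1 limma's adjusted p was 0.249 for Maff and 0.0838 for Mafk, and without gelADSC library 2 it was 0.00248 for Mafg.

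**Figure D3:**
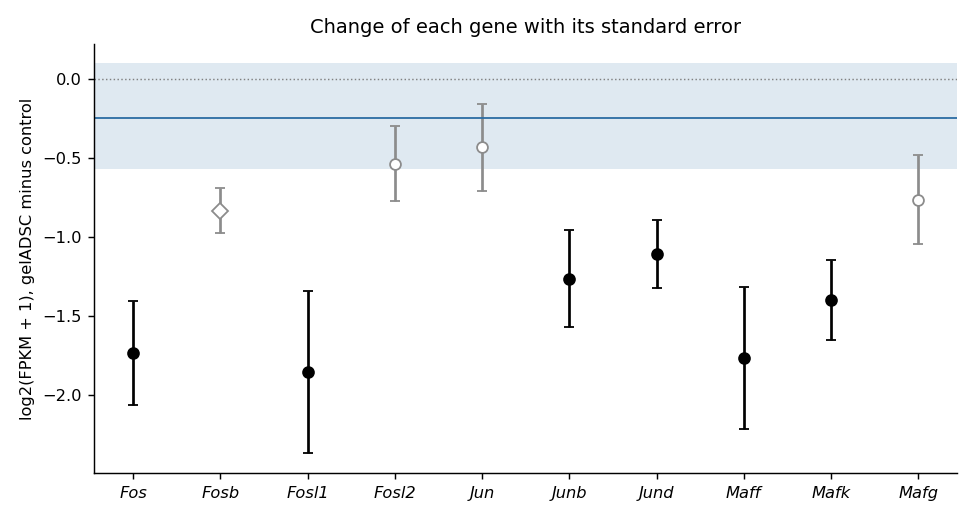
Log2 change of each gene (gelADSC minus control, log2(FPKM + 1)) with its standard error; filled circles passed the limma test, open circles did not, and the diamond is Fosb from the fit without a filter. The blue line and band are the median, -0.25, and the quartiles of all tested genes; the 6 filled circles lie between -1.85 and -1.11, below the band.

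The order of the levels differed between the groups at the top, while Fosb and Fosl1 took the last places in both. In gelADSC livers Mafg, Jund, Junb and Jun led, with means of 21.7, 20.4, 19.5 and 15.9 FPKM, and each overlapped its neighbour. Mafk followed with 6.28 FPKM, apart from both neighbours, and then Fosl2, Maff and Fos with 3.57, 3.15 and 1.35 FPKM, which overlapped in turn. Fosb and Fosl1 closed the order. In control livers Junb and Jund led with 46.4 and 45.2 FPKM and overlapped, then came Mafg with 36.1 FPKM, apart from both neighbours. Jun, Mafk, Maff, Fos, Fosl2, Fosl1 and Fosb followed, each overlapping the next. These levels rest on the gene lengths behind the deposited values, which were 2878 bases for Jund and 1636 bases for Mafg, where GENCODE M21 gives 1668 and 5613 exon bases. For Fosl2 the lengths are 5863 and 9680 bases and for Fosb 3776 and 6243 bases. Orders of levels and shares within a family depend on which length applies. The ratio of 1 gene between groups does not, if its reads stay the same. Dividing the same reads by the GENCODE lengths gave Fosl2 38.8% and Fos 47.4% of the Fos family in control library 3. This is the reverse of their order above. Fosl2 still held the most in both gelADSC libraries (75.3% and 50.3%). Likewise Mafg held 48.5% and 39.8% of the small Maf sum in gelADSC libraries 2 and 3, with Mafk above it in library 3 (46.8%). Counting on the GENCODE genes could also change the reads, which was not tested.

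Within the control group, library 1 was higher than library 3 for 9 of the 10 genes, with Jun again the exception. The median log2 difference between these libraries was 0.43 over the 9 tested genes, against 0.21 over all tested genes. The count is of deposited values. With the median ratio factors of 1.19 and 0.998 for control libraries 1 and 3, Fosl2 too was lower in library 1. In the gelADSC group no common direction was seen. Library 2 was the higher for Fosl2, Junb, Maff and Mafg, and library 3 for Fos, Fosb, Jun, Jund and Mafk. Of the 9 tested genes, those with the widest gap between control libraries, Fosl1, Maff and Fos, had the most negative log2 changes and the largest standard errors. The standard errors are computed from gaps within groups, and the changes use the same control values. This link is therefore in part arithmetic.

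**Figure D4:**
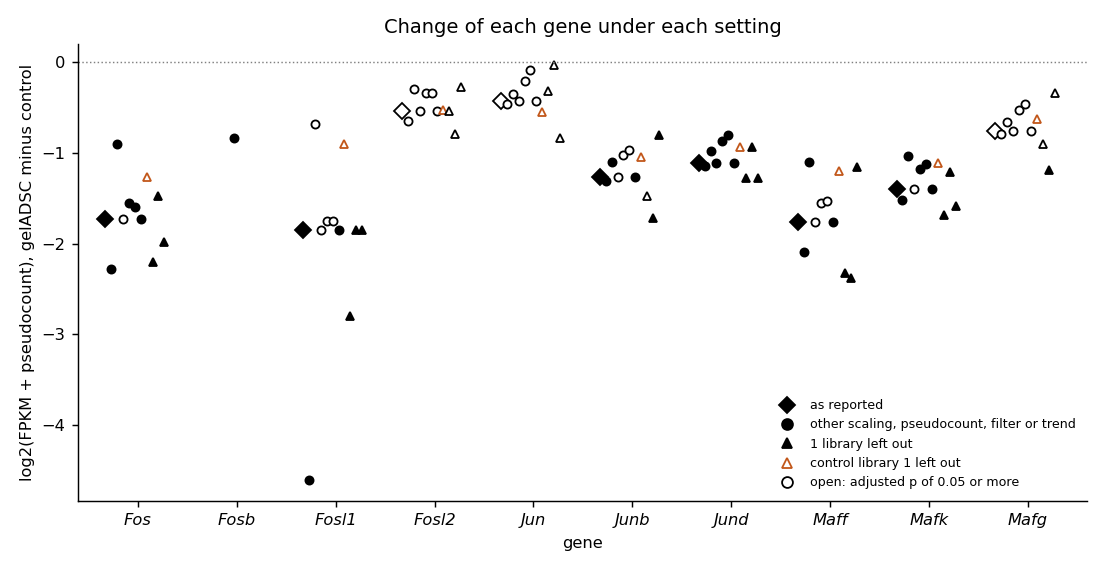
Log2 change of each gene, gelADSC minus control, as reported (diamonds) and under other scalings, pseudocounts, filters or trends (circles) or with 1 library left out (triangles); open symbols have a limma adjusted p of 0.05 or more. All values lie below 0, and the orange triangles, without control library 1, are open for all 9 tested genes; the fit on recovered reads is not drawn.

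The stretches around the transcription start of 4 of these genes are shown because they hold letters of the CREB motif or its variant. The AP-1 and CREB families bind closely related letters. Promoter windows of RefSeq (GRCm38.p6), 250 bases before to 50 after each start, were found for 9 of the 10 genes, with 3 starts for Maff, and 1 was not found for Fosl1. Printed are 150 bases before to 20 after the start, 5′ to 3′ on the strand of the gene. Capitals mark TGACG, the core of the CREB motif, the whole CREB motif TGACGTCA, its variant TGACATCA, the TATA box TATAAA and CCAAT.
Fos, chr12:85473740-85473909, plus strand: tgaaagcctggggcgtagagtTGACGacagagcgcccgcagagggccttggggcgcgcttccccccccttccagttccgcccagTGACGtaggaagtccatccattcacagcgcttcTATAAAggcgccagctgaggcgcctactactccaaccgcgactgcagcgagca
Jun, chr4:95052203-95052372, minus strand: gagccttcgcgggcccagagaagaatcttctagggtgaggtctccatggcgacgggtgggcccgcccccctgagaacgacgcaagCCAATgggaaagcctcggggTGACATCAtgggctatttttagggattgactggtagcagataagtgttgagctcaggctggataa
Junb, chr8:84978729-84978898, minus strand: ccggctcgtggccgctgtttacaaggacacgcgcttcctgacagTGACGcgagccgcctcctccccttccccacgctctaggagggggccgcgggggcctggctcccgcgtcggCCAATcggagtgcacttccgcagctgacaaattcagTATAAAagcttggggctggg
Maff, second start, chr15:79347370-79347539, plus strand: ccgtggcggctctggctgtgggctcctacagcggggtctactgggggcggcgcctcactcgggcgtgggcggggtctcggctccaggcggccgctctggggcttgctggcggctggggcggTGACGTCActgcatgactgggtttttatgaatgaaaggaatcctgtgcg

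Motifs were searched on both strands of the whole windows. TGACG lay in the windows of 6 of the 9 genes (Fos, Fosb, Junb, Maff, Mafk and Mafg), and 20.8% of the 32851 windows of all genes hold it. In Fos its first base was at -129 and at -66 from the start, in Junb at -106 and in Mafg at -22. The 6 is a count of genes, with Maff counted if any of its 3 windows matched, and the 20.8% is a share of windows. The windows of these genes that hold TGACG were 58.7% to 69.7% G or C, against a median of 52.7% over all windows. The part of this base content in the count was not tested. The full TGACGTCA, which contains TGACG, was found for 1 gene, Maff, at -29 of the second start, where 1.79% of all windows hold it. TGACATCA was found for Jun, at -45, and at the third start of Maff, also at -45, against 3.62% of all windows. TATAAA lay at -33 in Fos and at 1 in Junb (13.6% of all windows), and CCAAT at -65 in Jun and at -36 in Junb (37.4%). In Junb TATAAA thus begins at the annotated start and not before it as in Fos. All positions depend on the annotated starts. The AP-1 motif TGANTCA (7.81% of all windows) and the CArG box bound by SRF (1.63%) were found in 0 of the 9 genes' windows. Sites more than 250 bases before a start lay outside the search. TGANTCA also does not match the longer TGACATCA found in Jun and Maff. A count of 0 therefore does not mean that no AP-1 or SRF site is present. GGAA, the core bound by ETS factors, lies in 96.0% of all windows. TGACG and TGACATCA were added to the search after the windows had been read. A match is a description of letters and not of binding.

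Some of these genes overlap others, and no source used here gives the strand setting of the authors' counting. Whether reads of the overlapping genes entered these values was not tested. In GENCODE M21 the exons of Fosl1 overlap those of Ccdc85b on the other strand over 1163 bases, 57.2% of its exon bases. Ccdc85b read 2.25 and 2.37 FPKM in gelADSC libraries 2 and 3, and 3.07 and 1.98 FPKM in control libraries 1 and 3, while Fosl1 had 0 reads in both gelADSC libraries. Jund overlaps Gm11175 on the other strand over 877 bases, 52.6% of its exon bases. Gm11175 is not among the deposited symbols, so its level is not known here. Smaller overlaps of 232 bases or fewer were found for Jun, Junb, Mafk and Mafg, and none for Fos, Fosb, Fosl2 and Maff.

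The genes most like Fosl1 and Maff in their course over the 4 libraries were sought among all tested genes, by the root mean square distance of centred log2(FPKM + 1). These members were taken because they had the fewest close genes. Closest to Fosl1 was Rgs16, a brake on G protein signalling, at a distance of 0.0845, with 0.123 and 0.298 FPKM in gelADSC libraries 2 and 3 and 7.31 and 1.11 FPKM in control libraries 1 and 3. The next was Cyr61, a matrix protein of the CCN family (0.159). Closest to Maff was Fabp4, a fatty acid carrier (0.152), with 38.6 and 12.5 FPKM in the gelADSC libraries and 98.0 and 52.4 FPKM in the control libraries, and then Atf3 (0.190). Distances over 4 libraries are a description only.

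Other bZIP genes, many of whose products pair with Fos, Jun or Maf proteins, form a list of 18. Of these, 10 were tested, 3 fell and 0 rose, where 17.5% and 6.92% of all tested genes did. The median log2 change was -0.37, close to the -0.25 of all tested genes. Nfe2 and Jdp2 passed the filter through the control group alone, and of the other 8 genes 1 fell. Atf3, a stress-induced partner of Jun, read 2.22 and 0.980 FPKM in gelADSC libraries 2 and 3, against 10.7 and 4.67 FPKM in control libraries 1 and 3 (log2 change -1.69, limma adjusted p = 0.0139). Nfe2, the larger NF-E2 subunit and a partner of Mafk, had 0.440 and 0.124 FPKM in the gelADSC libraries and 2.34 and 3.12 FPKM in the control libraries (log2 change -1.54, limma adjusted p = 0.00384). Jdp2, a Jun-binding repressor, had a log2 change of -0.96 (limma adjusted p = 0.0244). Nfe2l2 (NRF2), the main activating partner of the small Maf proteins, read 34.2 and 30.0 FPKM in the gelADSC libraries and 59.8 and 41.4 FPKM in the control libraries, a log2 change of -0.62 that did not pass (limma adjusted p = 0.0751). Nfe2l1, a close relative of Nfe2l2, had a log2 change of -0.29 (limma adjusted p = 0.302). The calls of Atf3 and Jdp2 were lost without control library 1. As for Fosl1, the direction of Nfe2 and Jdp2 was fixed by the filter, so their p-values are given as a description.

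Of 21 genes of the kinases and SRF-type factors that act on Fos and Jun, 20 were found and 19 tested, 2 fell and 1 rose, with a median of -0.27. That is 10.5% lower, below the 17.5% of all tested genes, and the median is close to theirs. Map2k2 (MEK2), a kinase that activates ERK, read 43.5 and 42.9 FPKM in gelADSC libraries 2 and 3, against 89.8 and 91.4 FPKM in control libraries 1 and 3 (log2 change -1.05, limma adjusted p = 0.00483). Map2k1 (MEK1) read 16.0 and 15.8 FPKM in the gelADSC libraries and 33.1 and 26.5 FPKM in the control libraries (log2 change -0.86, limma adjusted p = 0.0170). Elk4, an ETS factor that joins SRF on early gene promoters, was the gene that rose, with 4.12 FPKM in both gelADSC libraries and 1.91 and 1.97 FPKM in the control libraries (log2 change 0.80, limma adjusted p = 0.0262). Map2k3, a kinase upstream of p38, was among the highest and did not pass (log2 change -0.39, limma adjusted p = 0.230). Among these, the call of Map2k2 alone held without control library 1.

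Of 20 genes known as AP-1 targets, 11 were tested, of which 7 fell in gelADSC livers and 0 rose, with a median of -1.02. Among all tested genes 17.5% fell and 6.92% rose, with a median of -0.25. Of the 8 targets that reached the filter in both groups, 6 fell, where 17.1% of all such genes did. Ccl2, a monocyte chemoattractant, read 3.71 and 0.739 FPKM in gelADSC libraries 2 and 3, against 34.4 and 28.3 FPKM in control libraries 1 and 3 (log2 change -3.49, limma adjusted p = 0.000936). Plaur, the urokinase receptor, had a log2 change of -3.11 and Spp1, osteopontin, one of -2.12. Ccnd1, the cyclin that drives entry into S phase, had 41.9 and 45.8 FPKM in the gelADSC libraries and 66.9 and 84.7 FPKM in the control libraries (log2 change -0.77, limma adjusted p = 0.0266). Without control library 1, 3 of the 7 calls held, those of Plaur and Spp1 among them, and with median ratio scaling 4 genes were called.

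Genes of the antioxidant response that NRF2 and small Maf dimers bind numbered 14 tested, of which 7 fell and 0 rose, with a median of -1.03. Of all tested genes 17.5% fell and 6.92% rose, and their median was -0.25. Srxn1, which repairs oxidised peroxiredoxins, read 17.3 and 20.9 FPKM in gelADSC libraries 2 and 3, against 231 and 74.3 FPKM in control libraries 1 and 3 (log2 change -2.72, limma adjusted p = 0.00392). As for Fosl1, control library 1 stood well above control library 3. Pgd and G6pdx, enzymes of the pentose phosphate pathway that supply NADPH, had log2 changes of -1.79 and -1.56, and Gsr, glutathione reductase, one of -1.67. Fth1, the ferritin heavy chain, had one of -1.23, and Ftl1, the light chain, one of -0.33 that did not pass (limma adjusted p = 0.369). Of the 7 calls, 4 held without control library 1.

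The other immediate early genes were called lower in 10 of 16 tested cases and higher in 0, with a median of -1.16. All tested genes were called lower in 17.5% and higher in 6.92% of cases, with a median of -0.25. Of the 10 called genes 1, Klf4, chosen here after its values were seen, reached the filter through the control group alone. Among the other 15 genes 9 fell, with a median of -1.03. Of all genes that reached the filter in both groups 17.1% were called lower. Ier3, a stress and survival gene, read 1.88 and 1.41 FPKM in gelADSC libraries 2 and 3, against 48.0 and 50.6 FPKM in control libraries 1 and 3. Ctgf, a matrix protein of the CCN family, read 2.64 and 6.61 FPKM in the gelADSC libraries and 26.1 and 19.8 FPKM in the control libraries (log2 change -2.17, limma adjusted p = 0.00323). Klf6, a zinc finger factor, and Cyr61 had log2 changes of -2.02 and -1.72. Zfp36, which marks short-lived mRNA for decay, and Gadd45g, a stress sensor, were the most abundant and did not pass (limma adjusted p = 0.0601 and 0.506). Of the 10 calls, 3 held without control library 1, and 5 genes were called with median ratio scaling. Of the heat shock genes, which respond to damaged proteins, 1 of 6 tested genes was higher and 0 lower, with a median of 0.12. Beside these stand the same 6.92% higher and 17.5% lower of all tested genes. Hspa1b, an inducible HSP70, rose to 11.2 and 14.1 FPKM in gelADSC livers, against 6.41 and 4.25 FPKM in control livers (log2 change 1.12, limma adjusted p = 0.0126), and the abundant Hspa8 and Hsp90aa1 had log2 changes of -0.33 and -0.06.

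**Figure D5:**
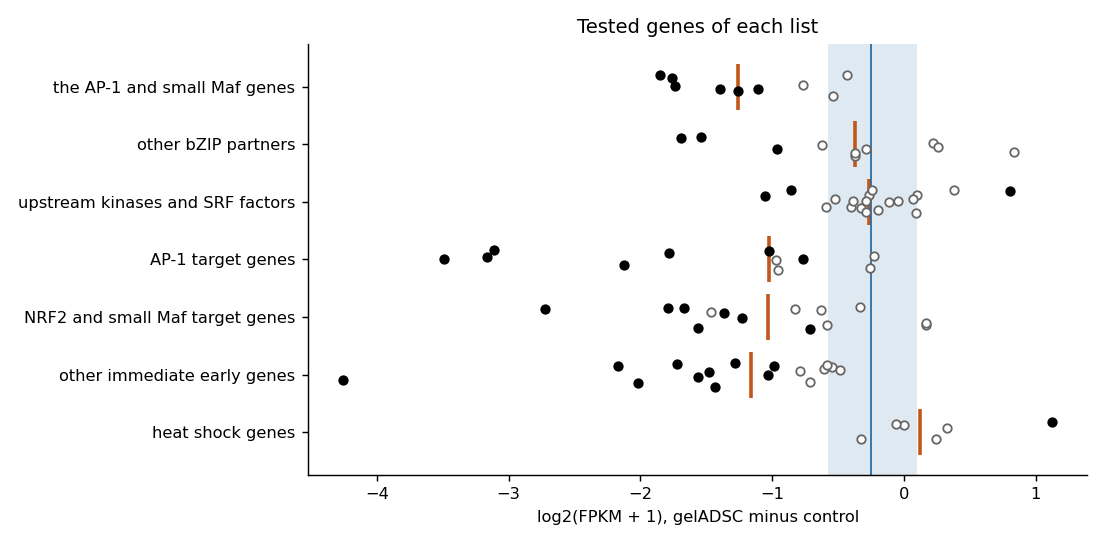
Log2 change (gelADSC minus control, log2(FPKM + 1)) of the tested genes of each list, filled where the limma test was passed; orange bars are list medians, and the blue line and band are the median and quartiles of all tested genes. The medians of the AP-1 and small Maf genes, the AP-1 targets, the NRF2 targets and the other immediate early genes lie between -1.26 and -1.02, and that of the heat shock genes at 0.12.

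Markers of the cells in liver were read in the same libraries, since less RNA per cell and fewer cells of a type cannot be told apart in bulk tissue. Hepatocyte markers were high in all libraries, with sums of 60050 and 80560 FPKM in gelADSC libraries 2 and 3 and 71102 and 86100 FPKM in control libraries 1 and 3, and 1 of 10 was called, higher. Kupffer cell markers summed to 387 and 242 FPKM in gelADSC livers and to 384 and 407 FPKM in control livers, with Cd68 the 1 of 10 called lower. Neutrophil and monocyte markers (9 of 10 found) summed to 79.3 and 26.7 FPKM in gelADSC livers and to 72.9 and 68.2 FPKM in control livers, with 0 of 6 tested called by limma (1 lower at an unadjusted p under 0.05), and gelADSC library 3 stood apart. The bile duct markers summed to 5.73 and 6.04 FPKM in gelADSC livers and to 42.6 and 17.5 FPKM in control livers. This difference lay in Cldn4 and Sox9, the 2 called lower among 5 tested, while the other 4 markers summed to 3.53 and 4.41 FPKM in gelADSC livers and to 8.75 and 3.63 FPKM in control livers, which overlapped. Stellate cell and fibroblast markers summed to 134 and 109 FPKM in gelADSC livers and to 170 and 75.8 FPKM in control livers, with 2 of 10 higher. Endothelial markers summed to 96.9 and 94.3 FPKM in gelADSC livers and to 96.1 and 87.0 FPKM in control livers, with 2 of 8 higher and 1 lower. Lymphocyte markers stayed under the filter in every case, with sums of 1.88 and 2.30 FPKM in gelADSC livers and 0.312 and 0.284 FPKM in control livers. No marker was at 0 in all libraries. Beside these counts of calls, 17.5% of all tested genes were lower and 6.92% higher. The part of these cells in the results was not tested.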

How the data were processed

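Liver RNA was extracted with a column kit and made into stranded libraries of polyadenylated RNA, per the labels' protocols. Trimmomatic 0.38, TopHat2 2.1.1 and Cufflinks 2.2.1 are named in the submitters' processing notes, as is a human genome build, although the table lists mouse symbols; no source used here gives the annotation or strand setting. The deposited values were taken as FPKM, since the authors' header names no unit. They equal whole reads over a gene length and a library total for 17561 of 17563 genes above 0, within 0.02 of a read, with totals of 24400843 and 20148365 reads (gelADSC libraries 2 and 3) and 19928789 and 18107212 reads (control libraries 1 and 3). Libraries carry the number of their column; columns give the group and do not match the titles' numbers.

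From there, log2(FPKM + 1) was compared by two-sided limma tests (limma 3.58.1, R 4.3.3, trend in the variance) for the 11070 genes averaging 1 FPKM or more, with Benjamini-Hochberg adjustment over all of them and a threshold of 0.05; the script was tested on simulated data. Alternatives were pseudocounts of 0.1 and 5, no filter, median ratio scaling, quantile normalization, no trend, each library left out and, added after seeing the data, limma's voom on the recovered reads. The members and lists were chosen with earlier results of these data known. Named genes are all 10 members and, of each list, up to 4 called genes with the largest change and 2 with the highest mean; 1 gene that this rule names is not reported here. A comparison of protein sequences was not run.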

Additional observations from a re-analysis of the deposited data

How the results depend on the processing

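No paired analysis was possible because the columns are numbered 1 and 3 in the control group and 2 and 3 in the gelADSC group and so share 1 number. The 9 tested genes kept a negative change in each fit run, and Fosb did in the fit without the filter, the 1 fit that held it. Of all tested genes 2702 were called, 28.3% of them higher, and 1255 without the filter (41.8% higher). The split was 44.1% higher with median ratio scaling (893 higher, 1132 lower) and 48.2% with quantile normalization (931 and 1000). Leaving out 1 library in turn gave 605 (without control library 1) to 2317 calls (without control library 3). Of the 10 genes, 6 were called lower as reported, 2 without the filter (Fosb and Jund), 3 with median ratio scaling and 3 under quantile normalization (Fos, Jund and Mafk in both). A pseudocount of 5 gave 5, with Fosl1 lost, and 6 were called with a pseudocount of 0.1, without the trend and with voom. Leaving out 1 library gave 0 to 7, with 0 without control library 1, when 605 genes were still called overall. In such fits the lone library of a group is assumed to vary like those of the other group. The median change of the tested genes was -0.90 with a pseudocount of 5 and -0.97 with quantile normalization, and -0.94 to -1.48 with 1 library left out. The number of libraries per group limits every call.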
